A study of Homo sapiens with 36 samples.

Results

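Bone morphogenetic proteins (BMPs) are secreted ligands of the TGF-beta superfamily. They bind paired type I and type II serine/threonine kinase receptors, the receptors phosphorylate SMAD1 and SMAD5, and these enter the nucleus with SMAD4. Among the genes switched on directly are the ID genes, whose products are helix-loop-helix proteins without a DNA-binding region that sequester bHLH transcription factors, and the brakes SMAD6 and SMAD7, the inhibitory SMADs. In the intestine, BMP signals from the tissue under the epithelium restrain stem cells and favour the maturation of cells on the villus. Expression of 9 genes of this pathway was followed: the targets ID1, ID2, ID3 and ID4, the inhibitory SMADs SMAD6 and SMAD7, the decoy receptor BAMBI and the ligands BMP2 and BMP4. They were taken by symbol from the mRNA count table, where all 9 were found among 60591 genes.

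The mRNA of Caco-2 and HT-29 cells, established human colorectal cancer lines, was read in 18 libraries that form 6 groups of 3 replicates. Caco-2 cells had been kept under differentiating conditions for 21 days before use and HT-29 cells had not, so line and culture state cannot be told apart. Each line was treated for 24 h with CoCl2 at 300 µM, a cobalt salt that stabilises hypoxia-inducible factors (HIF) by blocking the prolyl hydroxylases, with oxyquinoline derivative 4896-3212 (OD) at 5 µM, an inhibitor of the same enzymes, or with neither. Control and OD media held 0.5 µl DMSO per ml. For CoCl2 the labels name a stock in water and the study's methods name DMSO, so an effect of the solvent cannot be told apart from that of CoCl2.

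Libraries held 12925719 to 22332639 counts. Levels are given in CPM, counts scaled to a common library size after TMM correction (the trimmed mean of M values, which levels the bulk of genes). The correction was made within each line, so that CPM of the 2 lines are not on a shared scale. The mean TMM factors of the control, CoCl2 and OD groups were, for Caco-2, 1.11, 0.892 and 1.00, and those of HT-29 were 1.19, 0.769 and 1.09. Scaling on library size alone moved the median fold change of all genes by -0.321 (CoCl2) and -0.153 (OD) on the log2 scale in Caco-2. For HT-29 the shifts were -0.632 and -0.136. All 9 epithelial markers were above 3 counts in every library, and their summed level was higher with CoCl2 than in control: 9551 to 10540 against 6154 to 6325 CPM in Caco-2, and 8152 to 8658 against 5448 to 5495 CPM in HT-29. With OD the sum was 8002 to 8463 CPM (Caco-2) and 7073 to 7760 CPM (HT-29), also above control. Not all of these markers went up: with CoCl2 in HT-29, 2 of the 9 were called higher and 2 lower, the lowest at -2.62 on the log2 scale. Summed enterocyte markers were 3502 to 5106 CPM across Caco-2 libraries and 190 to 265 CPM across HT-29 libraries. Of 9 markers of other cell types, 5 to 6 were above 3 counts in a Caco-2 library and 3 to 4 in one of HT-29, with sums of 45.0 to 63.0 CPM and 1085 to 1214 CPM, the latter nearly all LYZ (up to 1206 CPM). PTPRC (leukocytes), CDH5 (endothelium) and DCN (fibroblasts) never exceeded 3 counts in a library, but the endothelial PECAM1 reached 172 counts and the fibroblast genes COL1A1 and LUM reached 405 and 74 counts in Caco-2. How far any of these markers bears on the values below was not tested. Replicate 1 stood apart in both treated groups of Caco-2: by chi-square per degree of freedom over genes it differed from the other two by 8.79 and 10.7 with CoCl2, where these differed by 3.42, and by 9.51 and 12.6 with OD, where these differed by 3.43. In HT-29 control it was replicate 3, at 6.10 and 5.00 against 1.99. Without any one of these 3 libraries the number of the 9 genes called against control stayed as given below. In bulk RNA, fewer cells of a type and less RNA per cell cannot be told apart. Of 5 HIF targets followed as a check of the treatments, all 4 that could be tested rose with either compound in Caco-2, all 5 rose with CoCl2 in HT-29 and 2 rose with OD in HT-29.

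A gene was called where edgeR's quasi-likelihood test gave a Benjamini-Hochberg adjusted p under 0.05 over all genes tested and the log2 fold change was over 1 in size. "Rose" and "fell" are used only for called genes. Of the 9 genes, the filter on low counts let 8 through in Caco-2, and 7 in the HT-29 fit. ID4, on chromosome 6 (GRCh38, 19837370 to 19842197, plus strand), had 0 counts in 17 libraries and 1 count in an HT-29 control library, so that it was not tested. ID3, on chromosome 1 (23557926 to 23559501, minus strand), had 12 to 32 counts in each Caco-2 library but only 1 to 11 in those of HT-29, and was tested within Caco-2 and between the lines.

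The promoters of ID1 and SMAD6 are shown because these 2 genes had the largest changes with CoCl2 in Caco-2, in opposite directions. RefSeq windows of 300 bases around a start site (GRCh38.p14) were at hand for 8 of the 9 genes, 12 windows in all. Both strands were searched for GGCGCC, the palindrome bound by BMP-activated SMADs, for CAGAC, a SMAD-binding element, and for ACGTG and GCGTG, the core letters of a hypoxia response element. The stretches printed lie before the annotated start of each gene and outside any annotated exon. That of ID1 is chr20:31605127-31605282 and that of SMAD6 is chr15:66701986-66702235, both on the plus strand, with capitals at each match on either strand.

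ID1: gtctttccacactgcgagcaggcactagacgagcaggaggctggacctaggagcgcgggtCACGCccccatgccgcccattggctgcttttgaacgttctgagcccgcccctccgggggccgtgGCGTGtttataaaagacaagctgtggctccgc
SMAD6: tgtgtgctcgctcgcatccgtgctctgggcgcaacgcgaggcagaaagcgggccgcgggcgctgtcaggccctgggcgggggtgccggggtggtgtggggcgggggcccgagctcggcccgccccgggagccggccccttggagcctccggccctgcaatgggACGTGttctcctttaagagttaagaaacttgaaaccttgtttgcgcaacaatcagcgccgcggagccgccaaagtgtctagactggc

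The ID1 stretch held 2 matches to GCGTG, one of them read as CACGC on the minus strand, and the SMAD6 stretch held 1 match to ACGTG. The rest of the ID1 window, not printed, held 1 match to ACGTG. Neither window held GGCGCC or CAGAC. Over the 12 windows, GGCGCC was found in 2, CAGAC in 8, ACGTG in 5 and GCGTG in 6. Among all 35116 promoter windows of the table the shares with a match were 19.2%, 45.3%, 21.4% and 36.5%. Such matches are letters in a window, and binding was not measured.

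Before treatment, all 8 testable genes were called between the lines (45.8% of all genes were). ID1, SMAD6, SMAD7 and BMP4 were higher in HT-29 control cells, by 4.32, 2.87, 1.02 and 2.25 on the log2 scale, and ID2, BMP2 and BAMBI were lower, by -1.84, -1.56 and -3.79 (edgeR, adjusted p at most 1.89e-10). ID3 was lower too, by -3.06, but it passed the filter only through the Caco-2 libraries, so that only a lower level in HT-29 could be found. The difference for SMAD7 was just past the limit and dropped to 0.95 with either DESeq2's test or its size factors, and to between 0.95 and 0.99 without Caco-2 control replicate 2 or 3 or HT-29 control replicate 2. To compare genes with each other, levels were divided by the transcript length implied by the deposited log2 table (RPKM, reads scaled for length and library size). In Caco-2 control cells ID2 was the most abundant of the 8 at 78.1 ± 0.223 RPKM (mean ± SD, n = 3, as for all groups), followed by BAMBI at 22.9 ± 1.29, BMP4 at 11.2 ± 0.342 and BMP2 at 10.4 ± 0.297. ID1 (2.74 ± 0.628 RPKM) and SMAD7 (2.35 ± 0.291) did not differ beyond their spread there, and neither did SMAD6 (1.04 ± 0.138) and ID3 (0.912 ± 0.345). In HT-29 control cells the order was another one: ID1 (51.1 ± 3.63 RPKM) and BMP4 (49.9 ± 2.17) led without differing beyond their spread, then came ID2 (20.5 ± 1.31), SMAD6 (7.11 ± 0.242), SMAD7 (4.47 ± 0.379), BMP2 (3.33 ± 0.225), BAMBI (1.56 ± 0.0600) and ID3 (0.105 ± 0.0273).

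**Figure D1:**
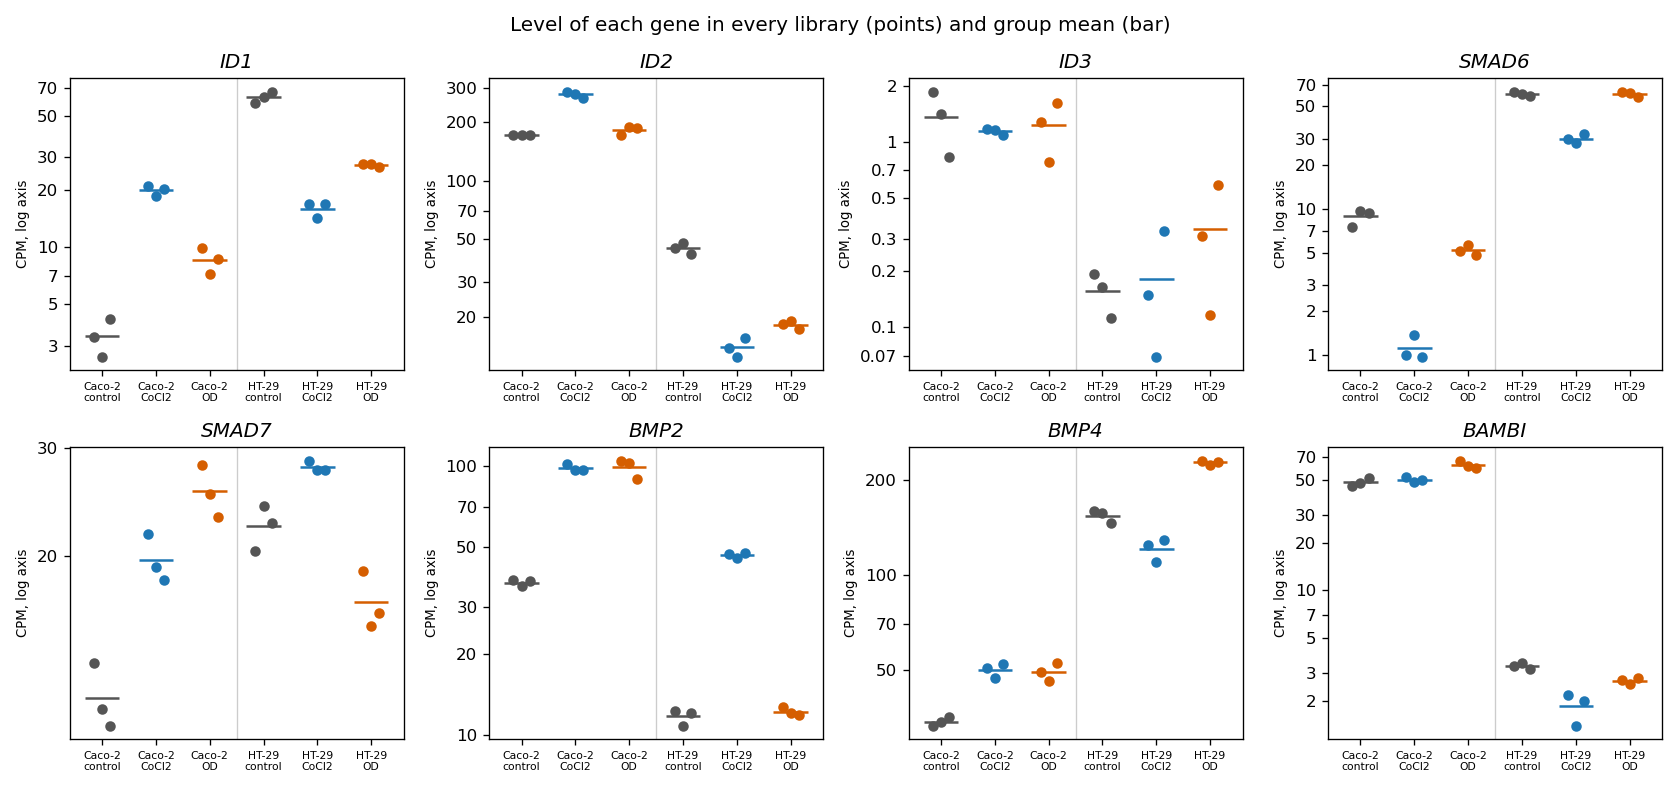
Level of 8 of the 9 genes in each of the 18 libraries, in CPM on a log axis (points), with the mean of each group of 3 as a bar. Control is grey, CoCl2 blue and OD orange. ID1 was raised by both compounds in Caco-2 (control mean 3.36, CoCl2 20.1 CPM) and lowered by both in HT-29 (62.7 and 16.1 CPM).

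In Caco-2, CoCl2 raised ID1 and BMP2 and lowered SMAD6, and OD raised ID1, SMAD7 and BMP2. In HT-29, CoCl2 lowered ID1, ID2 and SMAD6 and raised BMP2, and OD lowered ID1 and ID2. With CoCl2, 3 of 8 genes were called in Caco-2 (2 higher, 1 lower), and 4 of 7 in HT-29 (1 higher, 3 lower). With OD, 3 of 8 were called in Caco-2, all higher, and 2 of 7 in HT-29, both lower. Among all 16034 genes tested in Caco-2, 23.4% were called with CoCl2 (9.13% higher, 14.2% lower) and 11.7% with OD (4.43% higher, 7.27% lower). Among all 15812 genes tested in HT-29, 41.3% were called with CoCl2 (17.4% higher, 23.9% lower) and 17.1% with OD (9.50% higher, 7.57% lower). The shares of the tested set, 37.5% for either compound in Caco-2, 57.1% for CoCl2 and 28.6% for OD in HT-29, rest on 2 to 4 genes each, and nothing particular to the set is read from them. The median log2 fold change of the tested genes was 0.62 (CoCl2) and 0.45 (OD) for Caco-2 cells. For HT-29 cells it was -0.85 and -0.30. The medians of all genes were -0.03, -0.02, -0.03 and 0.01 in the same order. Both compounds were compared with the same control libraries, so that their values are given side by side and are not independent.

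ID1 (chromosome 20, 31605283 to 31606515, plus strand, no overlapping gene) is the classical immediate target of BMP signalling. In Caco-2 its level was 3.32, 2.62 and 4.15 CPM in the control libraries, 21.2, 18.7 and 20.4 CPM with CoCl2 and 9.89, 7.21 and 8.61 CPM with OD. The 3 groups did not overlap, and CoCl2 libraries were highest. The log2 fold change was 2.58 ± 0.16 (SE) for CoCl2 (edgeR, adjusted p = 1.40e-12), 5.97-fold, and 1.35 ± 0.18 for OD (adjusted p = 8.33e-07), 2.54-fold. In HT-29 ID1 stood at 58.1, 63.1 and 67.0 CPM in control, 16.9, 14.3 and 16.9 CPM with CoCl2 and 27.5, 27.6 and 26.7 CPM with OD. The groups were again apart, in the opposite order. CoCl2 changed ID1 by -1.98 ± 0.07 (adjusted p = 3.70e-19) and OD by -1.21 ± 0.06 (adjusted p = 3.96e-15) in HT-29. With CoCl2 the levels were 18.7 to 21.2 CPM in Caco-2 and 14.3 to 16.9 CPM in HT-29, where the control means had been 3.36 ± 0.770 and 62.7 ± 4.46 CPM. The lines were scaled separately, and a difference between their CoCl2 groups was not tested. CoCl2 exceeded OD in Caco-2 by 1.23 ± 0.15 (adjusted p = 1.77e-07), a call, and lay under OD in HT-29 by -0.77 ± 0.08 (adjusted p = 1.89e-09), short of the limit of 1 but a call on library sizes alone (-1.27).

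ID2 (chromosome 2, 8678845 to 8684461, plus strand) acts on the same bHLH partners as ID1. An antisense gene, ID2-AS1, overlaps it on the other strand, and since the use of strand in counting was not stated, its reads cannot be told apart from those of ID2. HT-29 control libraries held 45.1, 48.1 and 42.3 CPM of ID2, CoCl2 libraries 13.9, 12.5 and 15.6 CPM and OD libraries 18.3, 19.0 and 17.3 CPM, with no overlap between groups. ID2 fell by 1.69 on the log2 scale with CoCl2 (SE 0.08, edgeR, adjusted p = 8.98e-17) and by 1.31 with OD (SE 0.07, adjusted p = 1.01e-14). In Caco-2 the control libraries held 172, 172 and 172 CPM, those with CoCl2 287, 280.5 and 266 CPM and those with OD 171, 190.1 and 187 CPM. The CoCl2 libraries lay above control, whereas the OD libraries overlapped with it. The CoCl2 difference of 0.69 ± 0.07 had an adjusted p of 7.39e-09 without reaching the limit of 1. That of OD was 0.09 ± 0.07 (adjusted p = 0.313) and -0.06 on library sizes alone.

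ID3 was low throughout. In Caco-2 it had 1.86, 1.41 and 0.831 CPM in control, 1.17, 1.16 and 1.08 CPM with CoCl2 and 1.28, 0.781 and 1.62 CPM with OD, with overlapping groups. The log2 fold changes were -0.29 (95% interval -1.05 to 0.48) and -0.19 (-0.94 to 0.56). Both intervals held 0 and neither held a rise of 1, but that of CoCl2 held a fall of 1. Their signs turned without Caco-2 control replicate 1 (0.01 for CoCl2 and 0.11 for OD).

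SMAD6 (chromosome 15, 66702236 to 66782849, plus strand, with a lncRNA overlapping it on the same strand, whose reads may not have been kept apart) competes for the BMP receptors and SMAD1 and acts mainly on the BMP branch. In Caco-2 the control libraries held 7.51, 9.66 and 9.42 CPM of SMAD6, the CoCl2 libraries 1.00, 1.38 and 0.974 CPM and the OD libraries 5.18, 5.65 and 4.80 CPM. CoCl2 libraries were at the bottom and OD libraries in between, with no overlap. SMAD6 fell by 2.98 on the log2 scale with CoCl2 (SE 0.22, edgeR, adjusted p = 1.86e-11), to 12 to 19 counts per library. The difference with OD was -0.76 ± 0.17 (adjusted p = 6.42e-04), under the limit. CoCl2 lay below OD by -2.23 ± 0.23 (adjusted p = 2.51e-08), a call. With limma on the deposited log2 RPKM values, the CoCl2 differences from control and from OD were -0.86 and -0.51, under the limit. There 1 is added to every RPKM value, which shrinks the differences of genes at low levels. In HT-29 SMAD6 was at 62.6, 60.3 and 58.5 CPM in control, 30.0, 28.2 and 32.2 CPM with CoCl2 and 63.0, 61.5 and 58.0 CPM with OD, so that the OD libraries spanned the control libraries while the CoCl2 libraries lay below both. The CoCl2 change was -1.01 ± 0.06 (adjusted p = 2.03e-14), and it came to between -0.95 and -0.995 when CoCl2 replicate 1 or 2 or control replicate 1 was left out, which ends the call by size alone. OD differed from control by 0.01 (95% interval -0.10 to 0.12, adjusted p = 0.872), with the sign turning under 5 other settings. CoCl2 lay below OD by -1.02 ± 0.06 (adjusted p = 2.91e-14), which was -0.97 without CoCl2 replicate 2 and -0.99 without OD replicate 1. With limma both CoCl2 differences were under the limit in HT-29 too, at -0.91 against control and -0.90 against OD.

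SMAD7 (chromosome 18, 48919853 to 48950965, minus strand) brakes both the BMP and the TGF-beta branch. In Caco-2 it stood at 13.4, 11.3 and 10.6 CPM in control, 21.8, 19.2 and 18.3 CPM with CoCl2 and 28.1, 25.2 and 23.1 CPM with OD. Here the OD libraries were the highest, and no groups overlapped. SMAD7 rose with OD by 1.11 ± 0.12 (edgeR, adjusted p = 5.21e-08), or 0.96 on library sizes alone and 0.84 on the deposited log2 RPKM values, both under the limit, and with CoCl2 the difference was 0.74 ± 0.12 (adjusted p = 1.42e-05). In HT-29 it stood at 20.4, 24.2 and 22.6 CPM in control, 28.6, 27.6 and 27.6 CPM with CoCl2 and 18.9, 15.4 and 16.2 CPM with OD. The CoCl2 libraries were above control and the OD libraries below. Neither difference reached the limit: 0.31 ± 0.08 for CoCl2 (adjusted p = 7.75e-04), which was -0.32 on library sizes alone (adjusted p = 5.08e-04), and -0.41 ± 0.08 for OD (adjusted p = 6.55e-05). The 2 inhibitory SMADs thus did not move together: with CoCl2 in Caco-2 SMAD6 fell while SMAD7 was 0.74 above control, and its libraries did not overlap with control.

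BAMBI (chromosome 10, 28677510 to 28682932, plus strand) encodes a receptor-like protein without a kinase domain that blocks receptor complexes. In Caco-2 it was at 46.3, 48.0 and 51.7 CPM in control, 52.2, 48.8 and 50.2 CPM with CoCl2 and 66.7, 61.6 and 60.1 CPM with OD. OD libraries lay above the others, by 0.37 ± 0.08 over control (edgeR, adjusted p = 5.79e-04), and CoCl2 differed by 0.05 ± 0.08 (adjusted p = 0.604), or -0.27 on library sizes alone. In HT-29 it was scarce, at 3.29, 3.45 and 3.19 CPM in control, 2.17, 1.38 and 1.97 CPM with CoCl2 and 2.69, 2.56 and 2.77 CPM with OD. Both treated groups lay below control. The CoCl2 difference was -0.85 ± 0.20 (adjusted p = 2.87e-04) and that of OD was -0.30 ± 0.17 (adjusted p = 0.111), neither of them a call. On library sizes alone CoCl2 gave -1.48 (adjusted p = 7.75e-08) and would be called.

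BMP2 (chromosome 20, 6767686 to 6780246, plus strand) encodes a secreted BMP ligand. In Caco-2 it was at 37.6, 35.6 and 37.2 CPM in control, 102, 96.6 and 96.8 CPM with CoCl2 and 104, 102 and 89.1 CPM with OD. Both treated groups were far above control and overlapped with each other. BMP2 rose by 1.42 ± 0.08 with CoCl2 (edgeR, adjusted p = 2.35e-13) and by 1.42 ± 0.08 with OD (adjusted p = 6.70e-13), and the 2 compounds differed by -0.00 (95% interval -0.16 to 0.16, adjusted p = 0.974), a difference whose sign turned with DESeq2's size factors (0.01). In HT-29 it was at 12.3, 10.8 and 12.1 CPM in control, 47.2, 45.4 and 47.3 CPM with CoCl2 and 12.7, 12.1 and 11.9 CPM with OD. Only the CoCl2 libraries stood apart from control there. BMP2 rose by 1.99 ± 0.07 with CoCl2 (adjusted p = 2.31e-19), 3.97-fold, while the OD difference was 0.06 (95% interval -0.11 to 0.23, adjusted p = 0.563), or -0.08 on library sizes alone. CoCl2 exceeded OD in HT-29 by 1.93 ± 0.07 (adjusted p = 9.85e-19).

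BMP4 (chromosome 14, 53949736 to 53958761, minus strand, with an overlapping lncRNA on the other strand) encodes a closely related ligand. None of its differences from control reached the limit. In Caco-2 it was at 33.4, 34.4 and 35.5 CPM in control, 50.8, 47.3 and 52.5 CPM with CoCl2 and 49.5, 46.1 and 52.9 CPM with OD. Both treated groups were above control, by 0.55 ± 0.09 and 0.52 ± 0.09 (edgeR, adjusted p = 6.54e-06 and 2.12e-05), and they differed from each other by 0.02 (95% interval -0.15 to 0.20), or -0.15 on library sizes alone. In HT-29 it was at 159, 156 and 146 CPM in control, 124, 109.6 and 128 CPM with CoCl2 and 229, 223 and 227 CPM with OD. CoCl2 libraries were lowest and OD libraries highest, with no overlap. The differences from control were -0.35 ± 0.05 (adjusted p = 2.03e-06) and 0.56 ± 0.05 (adjusted p = 4.59e-10), and CoCl2 lay below OD by -0.91 ± 0.05 (adjusted p = 2.61e-14), which went past the limit on library sizes alone (-1.41) and in the fit over 18 libraries (-1.002).

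Compared directly, CoCl2 and OD differed by the call rule in 2 of 8 genes in Caco-2 (ID1 and SMAD6, 11.7% of all genes) and in 2 of 7 in HT-29 (SMAD6 and BMP2, 29.9% of all genes). The compounds were given at 1 dose each, and the doses differ.

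**Figure D2:**
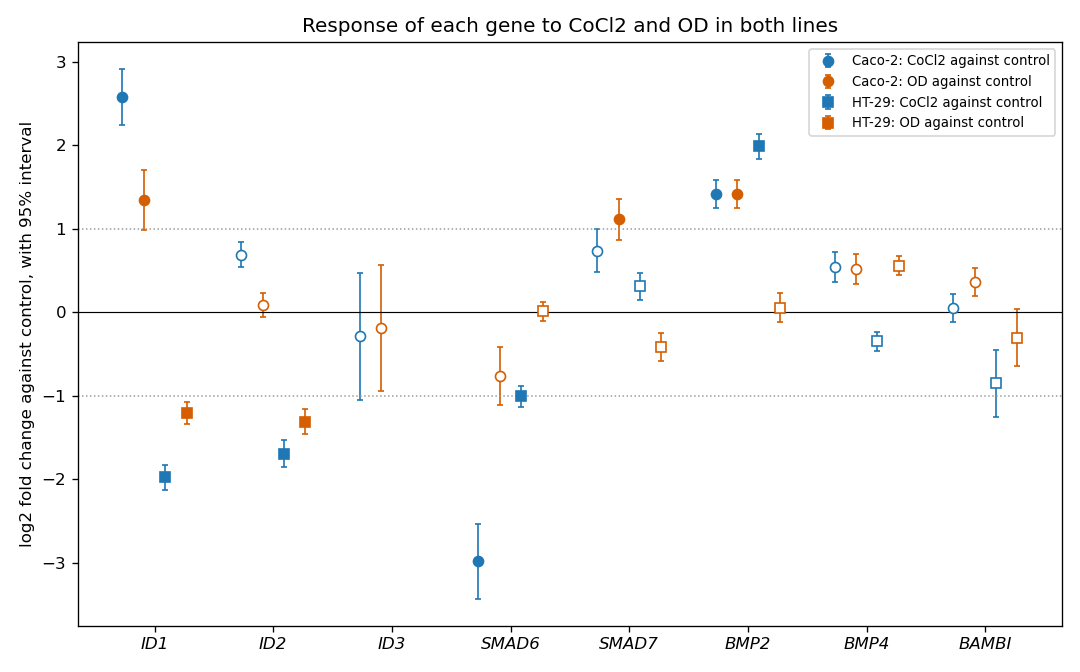
Log2 fold change against control with its 95% interval for the 8 testable genes, circles for Caco-2 and squares for HT-29, CoCl2 in blue and OD in orange. Filled symbols are called and dotted lines mark the limit of 1. ID1 lies above 1 in Caco-2 and under -1 in HT-29 with both compounds, and SMAD7 with CoCl2 in HT-29, drawn at 0.31, was -0.32 on library sizes alone.

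Whether a response differed between the lines was tested as an interaction over all 18 libraries, given as the HT-29 response minus the Caco-2 response. For CoCl2, 5 of 8 genes were called (21.6% of 17921 genes tested). The difference was -4.66 ± 0.17 for ID1 (edgeR, adjusted p = 1.48e-21), -2.49 ± 0.11 for ID2 (adjusted p = 1.12e-19) and 1.87 ± 0.20 for SMAD6 (adjusted p = 1.76e-09). ID1 is thus the gene of the 9 for which the lines parted most, and its difference was larger in size than that of 99.1% of all genes. The value for SMAD6 rests on 12 to 19 counts in each Caco-2 library with CoCl2. The interaction was not run with limma, where the CoCl2 differences of SMAD6 were -0.86 in Caco-2 and -0.91 in HT-29. BMP4 (-1.001 ± 0.0989) and BAMBI (-1.01 ± 0.19) were called at the very edge of the limit. Without Caco-2 control replicate 1, Caco-2 CoCl2 replicate 1, HT-29 control replicate 2 or HT-29 CoCl2 replicate 2, both dropped under it, to between -0.83 and -0.99. BMP4 did so too without Caco-2 CoCl2 replicate 3 (-0.97) or HT-29 control replicate 1 (-0.99). DESeq2's test and its size factors likewise left both under the limit, between -0.90 and -0.91. BMP2 (0.46 ± 0.11) and SMAD7 (-0.53 ± 0.15) differed by less than the limit, and ID3 by 0.41 ± 0.89 (adjusted p = 0.751).

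For OD, 4 of 8 genes were called (15.2% of all genes). The differences were -2.57 ± 0.18 for ID1 (edgeR, adjusted p = 9.75e-14), -1.41 ± 0.10 for ID2 (adjusted p = 1.92e-13), -1.54 ± 0.15 for SMAD7 (adjusted p = 1.76e-10) and -1.38 ± 0.11 for BMP2 (adjusted p = 6.29e-12). All 4 calls had the same sign, with the lower response in HT-29. The HIF targets followed as a check also went this way: 4 of 5 were called lower in the OD interaction. Their median was -2.83 and the highest of the 5 was 0.35. Whether the calls above are related to this was not tested. With OD, ID1 rose in Caco-2 and fell in HT-29, and ID2 fell in HT-29 and differed by 0.09 in Caco-2. SMAD7 and BMP2 rose in Caco-2 and differed from control by -0.41 and 0.06 in HT-29. SMAD6 (0.75 ± 0.15) and BAMBI (-0.69 ± 0.17) had adjusted p of 7.36e-05 and 0.00101 with a size under the limit. For BMP4 the difference was 0.02 (95% interval -0.18 to 0.22, adjusted p = 0.903), and for ID3 it was 1.33 ± 0.73 (adjusted p = 0.143).

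The likeness of patterns was described by Pearson's r of log2 CPM over the 18 libraries, each line centred on its own mean, which the 6 groups dominate. ID2 was the gene of the set most like ID1 (r = 0.82), then came BAMBI (0.58), BMP4 (0.56), SMAD7 (0.37), BMP2 (0.00), ID3 (-0.11) and SMAD6 (-0.47). Of the other 17920 genes that passed the filter, those nearest to ID1 were BCL2L1 (r = 0.98), which encodes the survival factor BCL-XL, ARF6 (0.97), a small GTPase of membrane traffic, MYADM (0.96), a membrane protein, DUSP6 (0.96), a phosphatase of ERK kinases, and SNHG1 (0.96), a host gene of small nucleolar RNAs. By Spearman's rho these 5 ranked 3, 9, 13, 30 and 59. DUSP6 had a range as wide as that of ID1: its mean level in Caco-2 was 10.2 CPM in control, 54.4 CPM with CoCl2 and 22.5 CPM with OD, and in HT-29 it was 126 CPM in control, 21.4 CPM with CoCl2 and 34.2 CPM with OD.

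**Figure D3:**
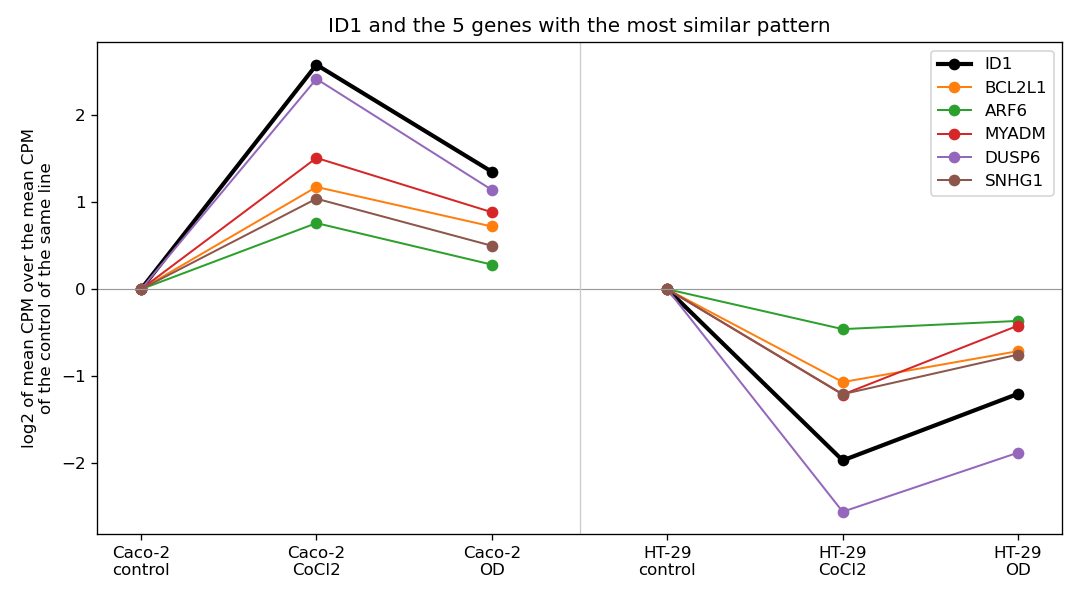
Log2 of the mean CPM of each group over the control mean of the same line, for ID1 (thick black line) and the 5 genes nearest to it in pattern (coloured lines). All 6 lines go up in Caco-2 and down in HT-29 with both compounds, by 0.28 (ARF6 with OD) to 2.58 (ID1 with CoCl2) in Caco-2.

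Of 71 other genes on lists of the BMP pathway and its neighbours, the fit of Caco-2 tested 48 and that of HT-29 tested 44. In Caco-2, 12 were called with CoCl2 (6 higher, 6 lower) and 5 with OD (4 higher, 1 lower), that is 25.0% and 10.4% of them. In HT-29, 20 were called with CoCl2 (5 higher, 15 lower) and 11 with OD (4 higher, 7 lower), that is 45.5% and 25.0%. The shares with CoCl2 and that with OD in Caco-2 were near those of all genes. Their median log2 fold changes were 0.25, 0.21, -0.24 and -0.13.

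Among 11 other ligands, the Caco-2 fit could test 5 and the HT-29 fit 2. With CoCl2, BMP8B fell by 1.47 and GDF7 by 1.14 on the log2 scale in Caco-2 (edgeR, adjusted p = 1.89e-11 and 3.16e-08). That of GDF7 was -0.72 with limma on the deposited values, which ends the call. BMP8B has a near-identical copy, BMP8A, and reads may have been split between them. BMP6, the liver iron-regulating ligand, was singled out after its values were seen, since it averaged under 50 counts. It had 7, 1 and 5 counts in Caco-2 control libraries, 51, 41 and 81 with CoCl2 and 53, 83 and 78 with OD. BMP6 passed the filter only through the treated libraries, so that only a rise could be found. Its log2 differences of 3.76 ± 0.38 and 4.03 ± 0.37 are given as a description. The median of the 5 ligands with CoCl2 in Caco-2 was -0.89. Of them 2 were called lower and 1, BMP6, higher, where 23.4% of all genes were called. Nothing particular to the ligands is read from so few genes.

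Of 11 receptors and co-receptors, 8 could be tested in each line. The core receptors stayed within the limit of 1 in most comparisons. BMPR1A differed from control by -0.26 (CoCl2) and -0.02 (OD) in Caco-2 cells. For HT-29 the values were -0.79 and -0.37. BMPR2, the type II receptor, differed by -0.26, -0.05, -0.42 and -0.18 in the same order. ACVR1, a type I receptor, rose with CoCl2 in HT-29 by 1.11 ± 0.06 (edgeR, adjusted p = 3.79e-16), or 0.47 on library sizes alone and 0.95 with limma, and stood 0.69 above control with OD. RGMB, a co-receptor of the repulsive guidance family, fell with CoCl2 in HT-29 by 1.12 on the log2 scale (adjusted p = 9.83e-11). With limma RGMB was at -0.79, under the limit. RGMA, of the same family, passed the filter in HT-29 only through the treated libraries, so that only a rise could be found. It had 6, 13 and 29 counts in control, 113, 120 and 74 with CoCl2 and 69, 62 and 76 with OD. Its log2 differences of 3.27 ± 0.22 and 2.23 ± 0.24 are given as a description. Endoglin (ENG) fell with CoCl2 in HT-29 by 1.63 on the log2 scale (adjusted p = 5.74e-12).

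All 6 SMADs of the BMP branch and SMURF ligases could be tested. SMAD1, a signal carrier of the pathway, was lower in each treated group: it fell with OD in Caco-2 by 1.34 on the log2 scale and with CoCl2 in HT-29 by 1.21 (edgeR, adjusted p = 8.79e-06 and 2.63e-10), and the other differences were -0.76 (CoCl2, Caco-2) and -0.58 (OD, HT-29). With limma both falls of SMAD1 ended as calls, at -0.52 and -0.75. SMAD5, its close relative, differed by 0.64, 0.13, -0.03 and -0.15 in the order CoCl2 and OD in Caco-2, then CoCl2 and OD in HT-29. SMAD4, the common partner, rose with CoCl2 in HT-29 by 1.26 ± 0.09, and SMURF1, a ubiquitin ligase of SMAD1 and SMAD5, rose by 1.52 ± 0.06 (adjusted p = 1.62e-12 and 3.29e-19). On library sizes alone these were 0.63 and 0.89, and SMAD4 was 0.71 with limma.

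Of 14 secreted antagonists, 7 were testable in Caco-2 cells. In HT-29 it was 5, of which 4 were called with OD, where 17.1% of all genes were. CHRD (1.16 ± 0.13), FSTL3 (1.29 ± 0.18) and NBL1 (1.22 ± 0.07), which bind BMPs or activins, rose with OD in HT-29, and SOSTDC1 fell by 1.02 on the log2 scale (edgeR, adjusted p at most 5.18e-07), a call that ended without control replicate 1 (-0.94) or OD replicate 1 (-0.93). With limma CHRD (0.51) and FSTL3 (0.74) were under the limit. With CoCl2 in HT-29, SOSTDC1 fell by 4.23 on the log2 scale, from 168, 173 and 227 counts to 7, 9 and 4. In Caco-2, CoCl2 raised FSTL3 by 1.52 ± 0.09 (adjusted p = 4.25e-13) and lowered CHRDL2, which fell by 1.37 on the log2 scale (adjusted p = 1.17e-05), or -0.81 with limma, no longer a call.

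ID proteins act by binding bHLH factors, and of 8 such factors and opponents 7 could be tested in HT-29. With CoCl2 6 of these 7 were called, all lower, and with OD 4, all lower, and the median log2 fold change was -1.41 and -1.97. Of all genes tested, 23.9% and 7.57% were called lower with CoCl2 and OD in HT-29. TCF4 and NEUROG3 passed the filter only through the control libraries of HT-29, so that only a fall could be found for them. The counts and medians of the 7 include both and are given as a description. The E protein TCF12, which ID proteins bind directly, fell with CoCl2 in HT-29 by 1.17 on the log2 scale (edgeR, adjusted p = 8.43e-18), and HES1, the Notch effector that keeps progenitors from the secretory fate, fell by 1.41 (adjusted p = 8.01e-16). The E protein TCF3 was the exception, at -0.03 and -0.09. The other 4 factors had under 120 counts in every HT-29 library and were singled out after their values were seen. ATOH1, the master factor of secretory cells, went from 60, 70 and 89 counts in control to 6, 5 and 4 with CoCl2 and 16, 17 and 18 with OD. Its changes were -3.26 ± 0.27 and -1.97 ± 0.20 on the log2 scale (edgeR, adjusted p = 1.95e-11 and 2.55e-09). NEUROG3, the enteroendocrine factor, went from 42, 49 and 59 counts to 6, 5 and 7 with CoCl2 and 3, 5 and 9 with OD, with changes of -2.45 ± 0.31 and -2.99 ± 0.31. ASCL2, a stem cell factor, had 69, 83 and 117 counts in control, 31, 24 and 26 with CoCl2 and 24, 21 and 16 with OD. Its changes were -1.13 ± 0.18 and -2.01 ± 0.19 (adjusted p = 3.02e-06 and 6.36e-10), the first of which was -0.99 without CoCl2 replicate 2 and -0.76 with limma. TCF4, the third E protein, had 20, 10 and 28 counts in control, 3, 0 and 1 with CoCl2 and 3, 1 and 2 with OD.

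In Caco-2, 5 of the 8 factors could be tested, and only TCF4 was called, with CoCl2: it fell by 1.61 on the log2 scale, from 23.3, 20.7 and 22.6 CPM to 6.499, 8.21 and 7.08 CPM (edgeR, adjusted p = 7.55e-11), without overlap. With limma the difference was -0.52, under the limit. TCF12 differed by -0.02 and 0.26, TCF3 by -0.18 and 0.09, and HES1 by 0.91 and 0.20 with CoCl2 and OD in Caco-2. Among 7 other BMP targets, ATOH8 had been at 24, 19 and 39 counts in HT-29 control libraries and was at 1, 0 and 1 with CoCl2 and 0, 1 and 3 with OD. ATOH8 passed the filter there only through the control libraries, so that only a fall could be found. It too was singled out after its values were seen, and was under 7 counts in each Caco-2 library.

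The sister branch of TGF-beta and activin, 14 genes, had 13 testable in Caco-2 cells. In HT-29 it was 12. TGFB1, a ligand, rose in Caco-2 with CoCl2 (2.03 ± 0.13) and OD (1.36 ± 0.13, edgeR, adjusted p = 1.82e-12 and 9.68e-09). TGFB2, another ligand, fell in HT-29 by 4.22 on the log2 scale with CoCl2 and by 1.63 with OD (adjusted p = 2.70e-17 and 3.55e-12), from 184, 275 and 371 counts to 11, 8 and 10 and to 96, 72 and 77. With CoCl2 in HT-29 the receptor TGFBR2 fell by 1.09 on the log2 scale and SMAD3, which carries the TGF-beta signal, rose by 1.44 ± 0.05 (adjusted p = 3.40e-17 and 3.26e-19), or 0.81 on library sizes alone.

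**Figure D4:**
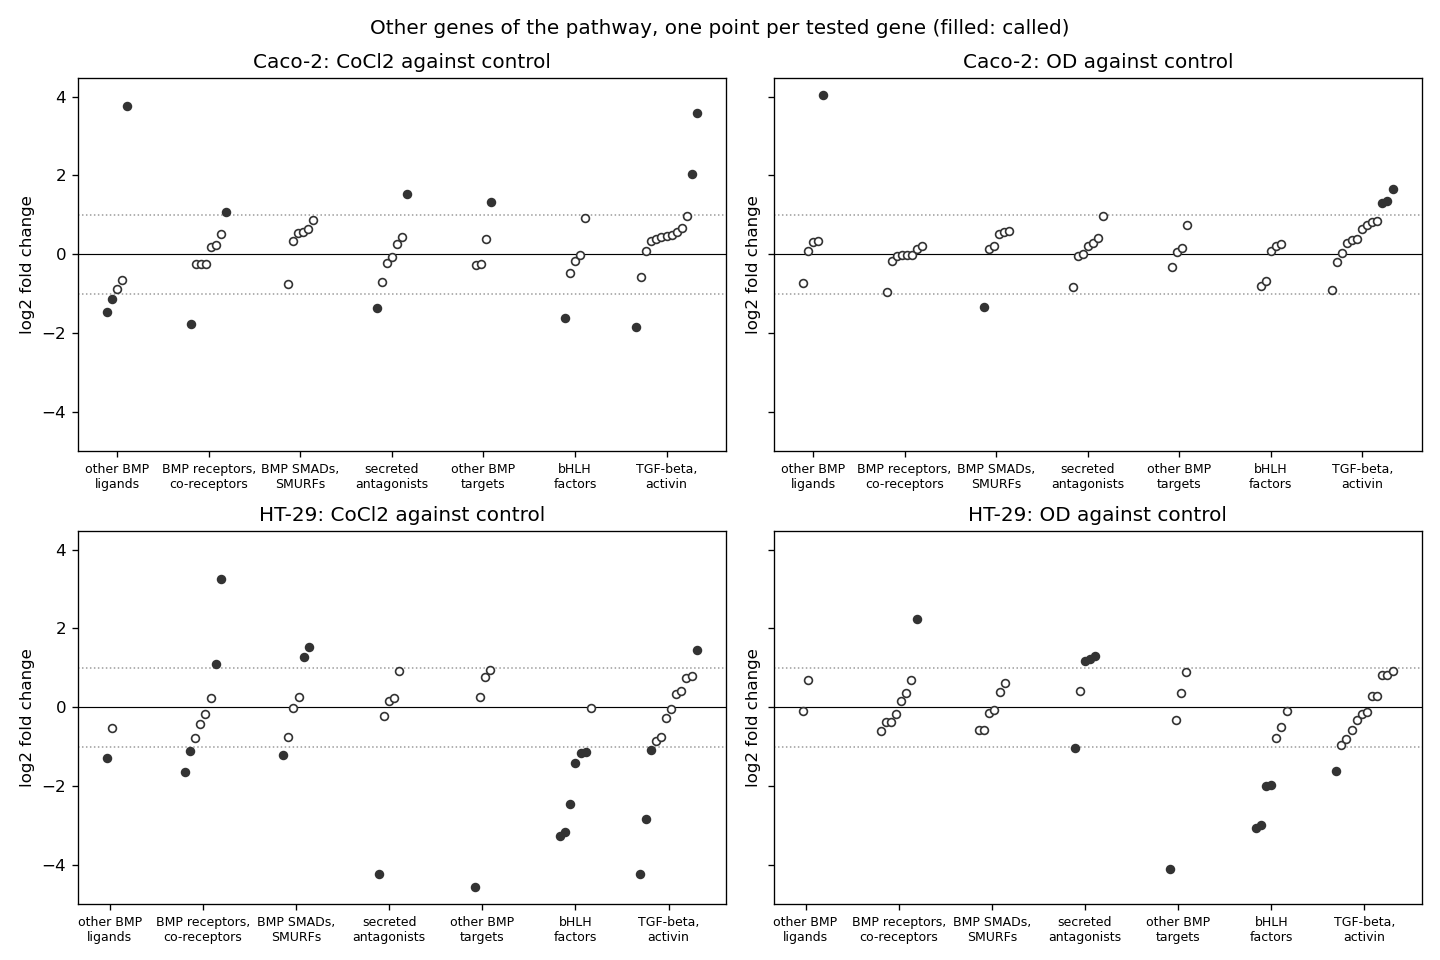
Log2 fold change of each tested gene of 7 lists of the BMP pathway and its neighbours, one panel per comparison with control, filled where called and with dotted lines at the limit of 1. With CoCl2 in HT-29, 6 of 7 bHLH factors lie under -1, and in Caco-2 1 of 5 does. TCF4, NEUROG3 and ATOH8 passed the filter in HT-29 only through the control libraries. BMP6 in Caco-2 and RGMA in HT-29 passed it only through the treated ones.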

How the data were processed

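The mRNA tables the authors deposited hold whole read counts of genes, not normalized, and log2 values, found from the counts to be log2 of RPKM plus 1. The implied length of each of these genes in a library lay within 4.32% of its median over the libraries. According to the labels, libraries were made with a stranded mRNA kit. The submitters' processing notes name FastQC 0.11.9, cutadapt 2.10, STAR 2.7.5b, Bowtie 1.1.1, edgeR 3.30.3 and the build GRCh38.p13. The counting tool and its use of strand are not given in the sources used here. The deposited miRNA counts and log2 CPM values were not used.

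The deposited counts were fitted with edgeR 4.0.16 (TMM, filterByExpr, quasi-likelihood F test, two-sided, Benjamini-Hochberg adjustment over all genes) in R 4.3.3, over the 9 libraries of a line, or over 18 for comparisons between lines. Alternatives used DESeq2 1.42.0, limma 3.58.1 on the deposited log2 values, other scaling and filters, and leaving out each library. Since the deposited values hold RPKM plus 1, the differences from limma are shrunk for genes at low RPKM. Scripts were tested on simulated data. Replicates are labelled as such, and no 2 libraries of a group agreed within sampling noise (chi-square per degree of freedom 1.96 to 12.6). Where they are not separate cultures, p-values measure technical spread. CPM at low counts carry counting error, which is included in the fits. Gene positions are from GENCODE on GRCh38.

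The 9 genes and the lists were chosen with earlier results of these data known. Named were the 9 genes, 8 core genes (BMPR1A, BMPR2, ACVR1, SMAD1, SMAD5, SMAD4, TCF3, TCF12), each listed pathway gene called in a comparison with control with a mean of at least 50 counts in that line, 21 in all, and the 5 genes most like ID1 by Pearson's r of log2 CPM (prior count 2). Other genes named were chosen after their values were seen.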

Additional observations from a re-analysis of the deposited data

Results flagged for a closer look

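A gene is listed here where the test of the interaction between line and treatment passed with a log2 difference over 1, always as the response in HT-29 minus that in Caco-2 (edgeR over 18 libraries). With 3 libraries a group, no test for a single library standing apart was run. For CoCl2 the differences were -4.66 for ID1 and -2.49 for ID2, where HT-29 fell and Caco-2 lay above control, 1.87 for SMAD6, which fell in both lines and further in Caco-2, and -1.001 for BMP4 and -1.01 for BAMBI, both at the edge of the limit. For OD they were -2.57 for ID1, which rose in Caco-2 and fell in HT-29, -1.41 for ID2, which fell in HT-29, -1.54 for SMAD7 and -1.38 for BMP2, both of which rose in Caco-2. Line and culture state cannot be told apart in any of them. The larger fall of SMAD6 in Caco-2 was not seen with limma (-0.86 in Caco-2 and -0.91 in HT-29), where 1 is added to every RPKM value. For ID1, all 3 treated libraries lay above all 3 controls in Caco-2 and below all 3 controls in HT-29, with either compound.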

How the results depend on the processing

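Counts of called genes moved by over 1.5 times as follows. Without a limit on the fold change, 6 (CoCl2), 6 (OD) and 5 (CoCl2 against OD) of 8 genes passed in Caco-2, and 7, 4 and 7 of 7 in HT-29. The share of all genes that pass without the limit is not given here, so nothing particular to the set is read from these counts. For CoCl2 against OD, limma left 1 in each line, and in HT-29 DESeq2's size factors left 1 and library size alone gave 5. For the CoCl2 interaction, DESeq2's test and its size factors each left 3 of 5. Of the 5 genes most like ID1, 1 was among the first 5 by Spearman's rho, and 5 with a prior count of 0.5.

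On library size alone the sign turned for BAMBI with CoCl2 (-0.27), ID2 with OD (-0.0645) and BMP4 for CoCl2 against OD (-0.15) in Caco-2, and for SMAD7 with CoCl2 (-0.32), BMP2 with OD (-0.0804) and SMAD6 with OD (-0.13) in HT-29. SMAD6 with OD in HT-29 was also -0.0102 with DESeq2's test, -0.00959 with its size factors, -0.0140 with limma and -0.00475 in the fit over 18 libraries. For CoCl2 against OD in Caco-2, BMP2 was 0.00501 with DESeq2's size factors and BMP4 was -0.00663 with no filter. SMAD6 in Caco-2 was -0.86 (CoCl2) and -0.51 (CoCl2 against OD) with limma, where 1 is added to every RPKM value.

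Leaving out each library in turn gave 3 to 3, 3 to 3 and 2 to 2 called genes in Caco-2 (CoCl2, OD, CoCl2 against OD), 3 to 4, 2 to 2 and 1 to 2 in HT-29, 3 to 5 and 4 to 4 for the interactions with CoCl2 and OD, and 7 to 8 between the controls. Uncalled differences changed sign over these ranges: in Caco-2, ID3 from -0.533 to 0.0122 with CoCl2, -0.432 to 0.113 with OD and -0.353 to 0.146 between the compounds, where BMP2 ran from -0.0732 to 0.0483 and BMP4 from -0.0275 to 0.0696. SMAD6 with OD in HT-29 ran from -0.0194 to 0.0486. The interaction of ID3 with CoCl2 ran from -0.281 to 0.811 and that of BMP4 with OD from -0.0297 to 0.0663.

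Deviations of same-numbered libraries correlated with r from -0.184 to 0.189 over 9 pairs in Caco-2 and -0.0898 to 0.0588 in HT-29. For libraries of other numbers r ran from -0.24 to 0.281 and from -0.0969 to 0.0983. With 3 libraries a group, a weak pairing by number may go unseen. A replicate block ended 1 call among the 9 genes, that of BMP4 in the CoCl2 interaction (-0.9992). At 1 to 32 counts per library, ID3 is limited by depth.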
